A study of Mus musculus with 14 samples.

Results

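The 6 STAT genes Stat2, Stat3, Stat4, Stat5a, Stat5b and Stat6 were taken by name from a table of 56414 genes and followed through 14 mouse mammary tumors. Each symbol matched 1 row of the table. M/D tumors are endogenous lesions of C57Bl/6 females that carried a slow-release pellet of medroxyprogesterone acetate (MPA, a synthetic progestin; 50 mg over 90 days, placed at 6 to 9 weeks of age) and were gavaged with the carcinogen 7,12-dimethylbenz[a]anthracene (DMBA). AT3 tumors were grown from AT3 cells, a single C57BL/6 mammary carcinoma line derived from an MMTV-PyMT transgenic tumor, injected under the skin. In both models mice were randomized once tumors measured 0.25 cm2 and either stayed untreated (4 M/D tumors, 3 AT3 tumors) or drank water with 0.5% nicotinamide (NAM, a form of vitamin B3) for 10 days (4 M/D tumors, 3 AT3 tumors). Every M/D tumor, treated or not, came from a host with MPA and DMBA. The labels give experiment 3 for all AT3 tumors, experiment 2 for NAM-treated M/D tumor 1 and experiment 1 for the other M/D tumors, so model and experiment cannot be told apart. RNA was taken from whole tumors. In such bulk samples, fewer cells of a type and less RNA per cell cannot be told apart.

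STAT proteins wait in the cytoplasm until a cytokine or hormone receptor, through its JAK kinases, phosphorylates them; they then pair, enter the nucleus and bind DNA. STAT2 works downstream of type I interferon, in a complex (ISGF3) with another STAT and IRF9 that binds the interferon-stimulated response element. STAT3 follows IL-6 family cytokines and is often active in carcinomas, STAT4 follows IL-12 in T and NK cells, and STAT6 follows IL-4 and IL-13. STAT5A and STAT5B follow prolactin, growth hormone and several hematopoietic cytokines, and STAT5A is known for its part in mammary alveolar development.

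The genes sit in 3 places of the mm10 (GRCm38) assembly. Stat4 lies alone on chr1:51987147-52107188 (plus strand). Stat6, at chr10:127642985-127660987, and Stat2, at chr10:128270555-128292849, share the plus strand of chromosome 10 with a gap of 609.567 kb. Stat5b (chr11:100780731-100850727, minus strand), Stat5a (chr11:100859351-100885168, plus strand) and Stat3 (chr11:100886806-100939540, minus strand) follow one another on chromosome 11. In the deposited coordinates, gaps of 8623 bp and 1637 bp part these 3 genes, with 0 genes of the table between them. In the GENCODE annotation Stat5a ends at 100885169 and Stat3 begins at 100885098, so their 3′ ends overlap. Stat5b and Stat5a are near copies. Of the 75-base stretches in the longest Stat5a transcript, 6.15% were identical to a stretch of a Stat5b transcript, and 7.53% of those of Stat5b occurred in Stat5a. For reads of 75 bases from those stretches, the split between both genes is uncertain. Of the stretches of Stat4, 25.9% also occur in the annotated gene model Gm28177, so its value may hold reads of that model. The 3′ end of Stat6 overlaps Nab2, whose value reached 4501 normalized counts, and no strand setting of the counting was given in the sources used here.

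Promoters are shown for the STAT gene and the textbook targets on which the comparison of the models turns. Capitals mark a core of the interferon-stimulated response element, GAAA followed by any 2 bases and a second GAAA, in Stat2 (where it reads on the minus strand) and Isg15, and TTCNNNGAA, the core that STAT dimers bind, in Cish. Both strands were searched, and the matches in Isg15 overlap one another. The stretches are RefSeq promoters of GRCm38.p6, 250 bases before to 50 after the start, for Stat2 (chr10:128270248-128270547, plus strand), the ISGF3 target Isg15 (chr4:156200769-156201068, minus strand) and the STAT5 target Cish (chr9:107296409-107296708, plus strand).
Stat2: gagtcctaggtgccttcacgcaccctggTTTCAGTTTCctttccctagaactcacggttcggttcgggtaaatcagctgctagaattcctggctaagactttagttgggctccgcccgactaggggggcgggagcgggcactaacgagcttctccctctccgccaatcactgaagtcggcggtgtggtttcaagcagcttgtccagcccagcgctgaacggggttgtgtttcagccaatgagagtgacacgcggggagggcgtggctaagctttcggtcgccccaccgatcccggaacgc
Isg15: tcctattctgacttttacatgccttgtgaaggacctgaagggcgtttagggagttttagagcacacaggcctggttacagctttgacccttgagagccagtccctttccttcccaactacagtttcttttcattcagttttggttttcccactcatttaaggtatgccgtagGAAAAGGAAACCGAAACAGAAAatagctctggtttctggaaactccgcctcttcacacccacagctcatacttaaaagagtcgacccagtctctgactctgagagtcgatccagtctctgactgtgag
Cish: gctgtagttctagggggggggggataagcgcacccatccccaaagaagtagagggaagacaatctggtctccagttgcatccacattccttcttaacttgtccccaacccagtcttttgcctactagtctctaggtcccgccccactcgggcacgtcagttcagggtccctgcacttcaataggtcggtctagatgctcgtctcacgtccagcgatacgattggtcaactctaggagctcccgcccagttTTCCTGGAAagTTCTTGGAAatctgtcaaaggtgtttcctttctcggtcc
The interferon core was found in 3.44% of the 32851 promoters of the same length, and TTCNNNGAA in 8.30% of them. Among the 15 of 21 textbook ISGF3 targets with a promoter in the table, 9 held the interferon core. TTCNNNGAA was in the promoter of 0 of the 6 STAT genes. A second promoter of Stat4, at chr1:52007990-52008289 (plus strand), also held the interferon core. A match is a stretch of letters and not a measured binding site.

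Deposited values were normalized counts (reads per gene divided by a size factor of the tumor) and rested on 40936868 to 84178009 reads per tumor. The size factors were apparently set within each model, so deposited values of M/D and AT3 tumors may not share a scale. M/D NAM tumor 1 stood apart from the other M/D tumors. Its summed B cell markers reached 363614 normalized counts, against 909 to 3008 in the other 7, with all 10 markers highest there. Its summed epithelial markers were 8454, against 277801 to 1045800, with all 10 lowest. In AT3 tumors epithelial markers summed to 77174 to 111331. Where leaving it out changed a call or a direction of a STAT gene, the value without it is given.

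By level per kilobase, Stat3 and Stat6 were the most abundant STAT transcripts of untreated M/D tumors, and Stat4 was the scarcest. The authors counted reads on constitutive regions only. The lengths of these regions were not used here, so levels of different genes compare only roughly. Per kilobase of the longest annotated transcript, with all tumors on a single scale (TMM factors), the level in untreated M/D tumors was 3084 ± 485 for Stat3 and 2979 ± 408 for Stat6 (SD, n = 4), ranges that overlap. Stat5a (913 ± 255), Stat2 (839 ± 369) and Stat5b (647 ± 123) followed, and none of these neighbours differed beyond its spread. Stat4 came last at 128 ± 38.6, and its highest tumor (185) was below the lowest Stat5b value (522).

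In untreated AT3 tumors the order of levels per kilobase began with Stat6, at 1685 ± 406 (SD, n = 3). Stat2 (1016 ± 143) and Stat3 (1003 ± 365) came next and overlapped, and the highest Stat3 tumor (1424) was above the lowest Stat6 tumor (1343). Stat5a (306 ± 71.2, from 252) and Stat5b (218 ± 24.5, up to 245) were lower with ranges just apart, and Stat4 was again the scarcest at 34.3 ± 17.3. Stat4 had the lowest level per kilobase of the 6 genes in 13 of 14 tumors, and the highest, 2960, in M/D NAM tumor 1.

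**Figure D1:**
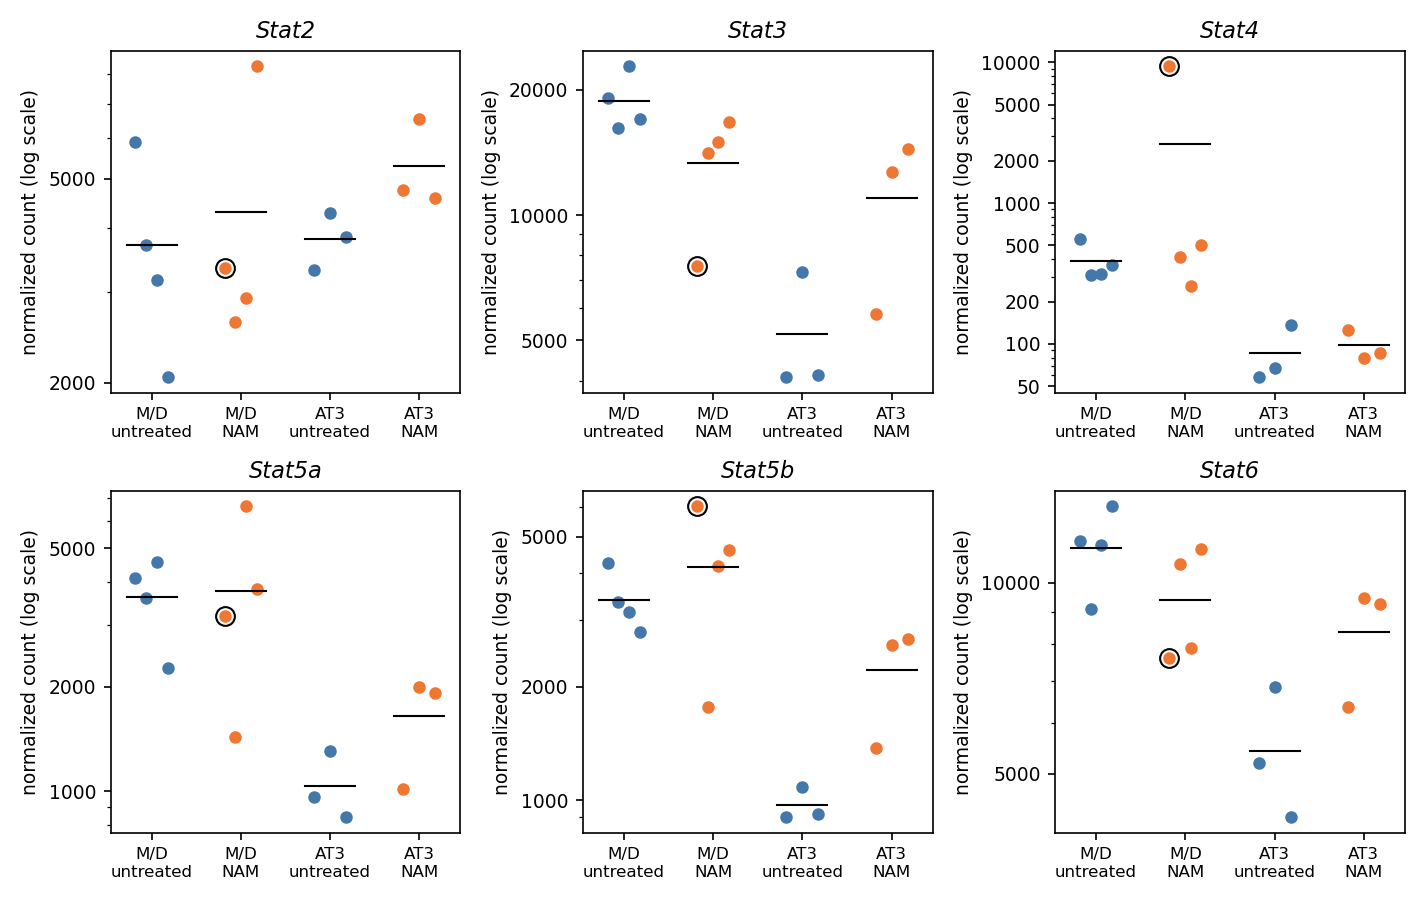
Normalized count of each STAT gene in every tumor (log axis), with untreated tumors in blue, NAM-treated tumors in orange, the group mean as a line and M/D NAM tumor 1 ringed. Stat4 in the ringed tumor (9336) lies above all other tumors (58.0 to 555), and Stat3 is higher in each untreated M/D tumor (16153 to 22774) than in each untreated AT3 tumor (4078 to 7314). Values are as deposited, with size factors apparently set within each model. With TMM factors over all tumors, these Stat3 ranges were 16294 to 22624 and 4678 to 8601.

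Untreated tumors were compared to ask how the models differ before treatment. Stat3, Stat5a, Stat5b and Stat6 were higher in M/D tumors, whereas Stat2 was not. As the size factors of the deposited values had apparently been set within each model, this comparison used TMM-scaled values of all 14 tumors in a single limma fit, and genes were called at a Benjamini-Hochberg adjusted p of at most 0.05 and a fold of at least 1.5. All 6 genes passed the filter (a group mean of at least 10). Called higher in M/D tumors were 4 of 6, against 25.8% of the 22916 genes tested, and called lower were 0 of 6, against 17.8%.

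On the deposited scale, Stat3 measured 19122, 16153, 22774 and 17021 normalized counts in untreated M/D tumors 1 to 4. In untreated AT3 tumors 1 to 3 it measured 4078, 7314 and 4121. Every M/D tumor was above every AT3 tumor, with a log2 difference of 1.67 (SE 0.36, adjusted p = 0.00274), or 3.17-fold.

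Stat5a, the main STAT of mammary alveolar development, measured 4096, 3587, 4574 and 2266 in untreated M/D tumors and 959, 1301 and 841 in untreated AT3 tumors. Stat5b measured 4256, 3366, 3151 and 2794 against 901, 1087 and 920. Groups did not overlap for either gene. The log2 differences were alike, 1.55 for Stat5a (SE 0.44, adjusted p = 0.0127) and 1.56 for Stat5b (SE 0.36, adjusted p = 0.0044), and the log2 ratio of Stat5b to Stat5a differed by 0.005 between the untreated models (exact two-sided permutation p = 1).

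Stat6 measured 11618, 9072, 11484 and 13199 in untreated M/D tumors and 5191, 6851 and 4269 in untreated AT3 tumors. The groups were apart, with the smallest of the called differences (log2 0.84, SE 0.23, adjusted p = 0.0115). Stat4 measured 555, 306, 315 and 365 against 58.0, 67.0 and 136. Its groups did not overlap either, but the difference of 1.96 (SE 0.90) had an adjusted p of 0.0925, and of 0.000965 when M/D NAM tumor 1 was left out of the fit that gives the spread. Stat2 measured 5888, 3710, 3169 and 2049 against 3310, 4290 and 3841, with a difference of -0.37 (SE 0.39, adjusted p = 0.458). Values of Stat2 in M/D tumors lay on both sides of the AT3 tumors. Groups were apart for 5 of 6 STAT genes, against 51.6% of all genes tested, and each of these 5 had an exact two-sided permutation p of 0.0286, the smallest that 4 against 3 tumors can give.

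These calls depended on the scale, and on the joint trend with transcript length and GC content. The median of all genes moved from 0.24 to -0.49 with upper quartile factors and to -0.32 after the trend of each tumor with transcript length and GC content was removed. Then 2 genes (Stat3 higher, Stat2 lower) and 1 gene (Stat2 lower) were called. Over all genes, 14.9% were called higher and 32.6% lower with upper quartile factors, and 15.4% and 29.3% with the trend removed. Relative to the median of all genes, Stat3 stood 1.42 higher in M/D tumors, 1.44 with upper quartile factors and 0.57 with the trend removed, while Stat2 stood -0.62, -0.60 and -1.15. Stat6 turned to -0.12 with the trend removed, or 0.20 relative to the median. Without untreated AT3 tumor 3, Stat5a (adjusted p = 0.0511) and Stat6 (adjusted p = 0.0597) lost their calls.

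The pathway around the STAT genes differed in the same comparison. Lists of JAK kinases, regulators, receptors, ligands and textbook targets were taken from general knowledge, with earlier results of these data known. A gene can be in several lists, as Il4ra is among the receptors and the STAT3 and STAT6 targets, and Stat3 among its own targets. Over all genes tested, 25.8% were called higher in M/D tumors and 17.8% lower. Among the kinases, 3 of 4 were higher in M/D tumors, namely Jak1 (log2 1.78, SE 0.28), Jak2 (1.24, SE 0.20) and Tyk2 (1.25, SE 0.26). Jak1 measured 8545 to 14374 normalized counts in untreated M/D tumors and 2526 to 3652 in untreated AT3 tumors. Of 30 receptors, 19 were higher and 0 lower. Il4ra (3.28), the receptor chain for IL-4 and IL-13, Il6ra (3.03) and its signalling partner Il6st (3.16), and Csf2rb (3.37, in a row that joins several symbols) had the lowest p. Il4ra, which many cell types carry, ranged from 2263 to 5913 in untreated M/D tumors and from 317 to 379 in untreated AT3 tumors. Among 16 negative regulators, 8 were higher and 1, the phosphatase Ptpn2 (-1.06), was lower. After the length and GC trend was removed, 1 kinase was higher, 10 receptors were higher and 3 lower, and 1 regulator was higher and 3 lower. With upper quartile factors 1 kinase, 10 receptors (2 lower) and 2 regulators (2 lower) were higher. Among all genes, 15.4% were called higher and 29.3% lower with the trend removed, and 14.9% and 32.6% with upper quartile factors.

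Textbook targets of STAT5, STAT6 and STAT4 were called in 1 direction only, higher in M/D tumors, in 6 of 15, 8 of 14 and 6 of 10 genes, with median log2 differences of 1.85, 2.25 and 1.57 against 0.24 over all genes. Cish, a feedback inhibitor that STAT5 induces and that carries 2 TTCNNNGAA cores in its promoter, measured 2593, 6653, 1969 and 2438 in untreated M/D tumors against 136, 120 and 178 in untreated AT3 tumors. It had the largest difference among called STAT5 targets (log2 4.16, SE 0.45). Mrc1 (2.53), Pparg (2.50) and Mgl2 (3.95) led the STAT6 targets after Il4ra and are also macrophage or adipocyte genes. Il18r1 (4.95), Ifngr1 (1.35), Il18rap (3.09) and Furin (1.64) led the STAT4 targets. In untreated AT3 tumors Il18r1 (8.70 to 31.7 normalized counts) and Il18rap (4.35 to 39.1) were low. Of 16 STAT3 targets 7 were higher, Stat3 itself, Pim1 (3.06) and Bcl3 (1.62) among them, and 1 was lower, Lcn2 (chosen for naming after its value was seen). With the trend removed, 4 of 15, 7 of 14, 4 of 10 and 5 of 16 targets of STAT5, STAT6, STAT4 and STAT3 were higher, and with upper quartile factors 4, 6, 4 and 4. The share of all genes called higher was 25.8% in the main fit, 15.4% with the trend removed and 14.9% with upper quartile factors.

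ISGF3 targets went the other way. Of 21 genes in this list, which holds Stat2, 0 were higher and 14 lower in M/D tumors (median log2 difference -2.06). Among all genes tested, 25.8% were called higher and 17.8% lower. With upper quartile factors and with the trend removed, 18 genes of the list were lower in each, where 32.6% and 29.3% of all genes were. Isg15, a ubiquitin-like interferon-stimulated protein, measured 13175, 12179, 5766 and 2871 in untreated M/D tumors. In untreated AT3 tumors it measured 63447, 26255 and 72707, all above the M/D tumors (-3.02, SE 0.52, adjusted p = 0.000727). The antiviral genes Mx1 (-2.64), Mx2 (-3.45) and Ifit2 (-2.92) had the lowest p of the list. Transcripts of Ifnb1, the interferon beta that engages this pathway, were read in untreated AT3 tumors at 397, 98.5 and 282 normalized counts. They were at 0 in 3 untreated M/D tumors and at 3.00 in the other.

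**Figure D2:**
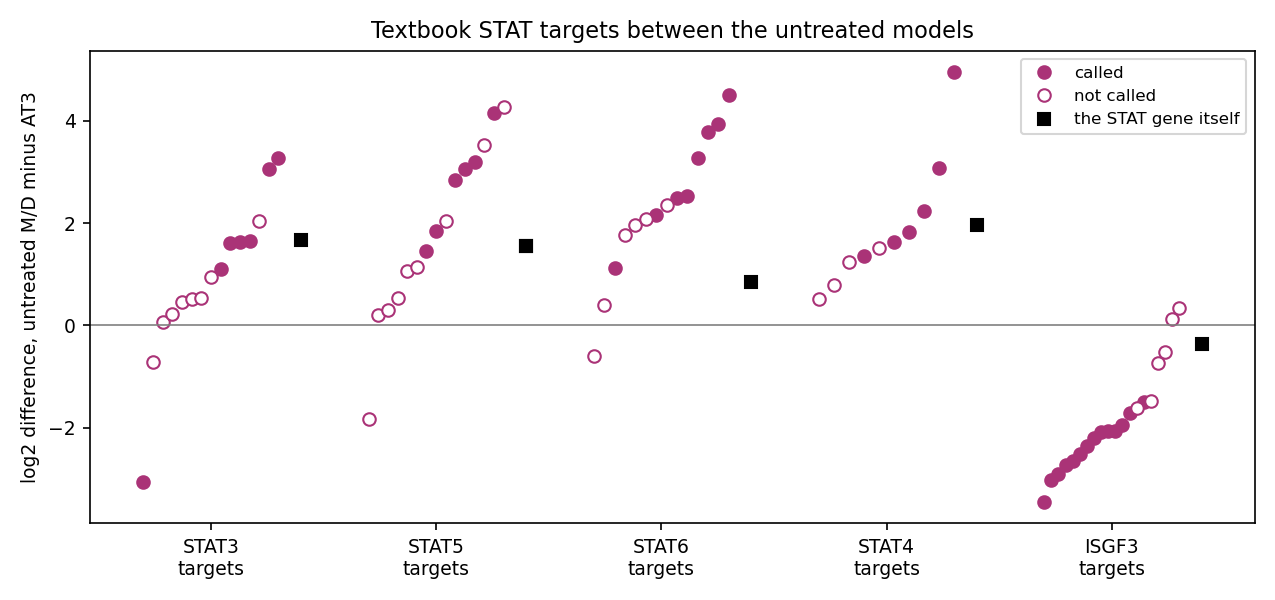
Log2 difference between untreated M/D and untreated AT3 tumors (y axis; TMM scale) for each tested gene of the textbook target lists (circles, filled where called) beside the STAT genes themselves (squares). ISGF3 targets have a median of -2.06 with Stat2 at -0.37, whereas the medians of STAT5, STAT6 and STAT4 targets are 1.85, 2.25 and 1.57.

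Cell type markers differed between the untreated models as well. Higher in M/D tumors were 10 of 16 T and NK cell markers, 9 of 12 macrophage and monocyte markers and 4 of 9 neutrophil markers. So were 10 of 10 adipocyte, 6 of 10 endothelial and 5 of 10 fibroblast and pericyte markers, 3 of 10 epithelial and 2 of 10 B cell markers. In each of these lists 0 were called lower. Over all genes, 25.8% were called higher and 17.8% lower. The macrophage marker Cd14 (chosen for naming after its value was seen) measured 6253 to 18580 normalized counts in untreated M/D tumors and 22663 to 33569 in untreated AT3 tumors, with groups apart but no call. With upper quartile factors 4 T and NK cell markers and 5 macrophage markers (2 lower) were higher, and with the trend removed 7 and 8 (1 macrophage marker lower). The shares of all genes called higher were then 14.9% and 15.4%. Macrophage markers summed to 184653 to 262454 normalized counts in untreated M/D tumors and 73345 to 143616 in untreated AT3 tumors, T and NK cell markers to 4390 to 11815 and 736 to 3870. Their part in the levels of STAT genes and targets was not tested.

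NAM was then compared with no treatment within each model, since the study treated established tumors to ask for a therapeutic effect. Genes were called where the fold was at least 1.5 and p, before any adjustment, did not exceed 0.05, a looser rule than in the comparison of the models. In M/D tumors no STAT gene passed. All 6 genes were tested, and 0 were called higher, against 3.03% of 21700 genes, and 0 lower, against 3.19%. Groups overlapped for all 6, where 4.43% of genes had groups apart. These counts are from limma; on recovered reads edgeR called 1 gene, Stat4, and DESeq2 called 0.

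Stat3 came closest to a call, with 7541, 14062, 14966 and 16782 normalized counts in NAM-treated M/D tumors 1 to 4 beside 16153 to 22774 in untreated ones. Only NAM-treated tumor 4 reached into the untreated range. The log2 difference was -0.54 (SE 0.27, adjusted p = 0.738). It was -0.29 without NAM-treated tumor 1 and -0.67, which passed the call, without NAM-treated tumor 4. Stat6 measured 7610, 10682, 7902 and 11305 after NAM, with a difference of -0.28 (SE 0.20, adjusted p = 0.788).

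Stat5a spread widely after NAM, at 3192, 1427, 6615 and 3811, as did Stat5b, at 6031, 1768, 4187 and 4609. Their differences, -0.10 (SE 0.45) and 0.18 (SE 0.37), were below their errors, and that of Stat5b turned to -0.047 without NAM-treated tumor 1. Stat2 measured 3349, 2627, 2928 and 8275 after NAM, where NAM-treated tumor 4 was above all other M/D tumors and the difference was 0.15 (SE 0.44). That tumor also had the highest summed T and NK cell markers of the M/D tumors (17900, with 11 of 16 markers highest there), and the part of these cells was not tested.

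Stat4 measured 9336 in NAM-treated M/D tumor 1 and 416, 258 and 501 in NAM-treated tumors 2 to 4, beside 306 to 555 in untreated ones. The difference of 1.17 (SE 1.02, adjusted p = 0.809) became 0.01 without tumor 1. In the same tumor Jak3, the kinase of hematopoietic cells, measured 9883 (in a row that joins Insl3), against 1766 to 3804 in the other M/D tumors, and Stat3 was the lowest of the 8. Over 14 tumors, Stat4 deviations from the group means had r = 0.93 with B cell markers, -0.96 with epithelial markers, 0.06 with T and NK cell markers and -0.58 with macrophage markers. Without tumor 1 these were 0.31, -0.55, 0.78 and 0.76 over 13 tumors.

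Few other pathway genes moved with NAM in M/D tumors. Receptors Lepr (-1.45, SE 0.63) and Il13ra1 (-1.07, SE 0.47) were called lower, 2 of 30 with 0 higher. Over all genes, 3.19% were called lower and 3.03% higher. Lbp (-1.59, SE 0.48), a STAT3 target and acute phase protein, and Ccl17 (-2.57, SE 1.04), a STAT6-induced chemokine, were lower, and Pparg (0.86, SE 0.31) was higher. No kinase, regulator, ligand or target of STAT5, STAT4 or ISGF3 was called. At the upper quartile 2 STAT4 targets and 1 receptor were higher, and 0 receptors were lower. With the trend removed 1 STAT4 target and 1 receptor were higher, and 1 receptor was lower. In both settings 2 STAT6 targets were higher and 1 lower, and 1 STAT3 target was lower. Among all genes tested, 4.15% were called higher and 2.54% lower at the upper quartile, and 2.43% and 3.17% with the trend removed. Adjusted p was 0.73 for each of the 5 genes named above (Lepr, Il13ra1, Lbp, Ccl17 and Pparg), by limma on the deposited values. Without NAM-treated tumor 1, 0 receptors, 1 STAT3 target and 1 STAT6 target were called.

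In AT3 tumors the same treatment went with higher Stat3, Stat5b and Stat6. Called higher were 3 of 6 STAT genes, against 12.2% of the 19281 genes tested, and called lower were 0 of 6, against 10.9%. Groups did not overlap for 2 of 6 (Stat2 and Stat5b), against 22.6% of genes. No STAT gene passed at an adjusted p of 0.05 in the main limma fit, which held all 6 tumors and no block. Under a replicate block, which pairs tumors by number only, Stat3 (adjusted p = 0.0412) and Stat5b (adjusted p = 0.0305) passed. Without NAM-treated tumor 1, Stat3 (adjusted p = 0.0257), Stat5a (adjusted p = 0.0463) and Stat5b (adjusted p = 0.0137) did, and without untreated tumor 2, Stat5b (adjusted p = 0.0465) did. DESeq2 on recovered reads called 4 genes, Stat5a added, and gave Stat5b an adjusted p of 0.00705. The untreated AT3 tumors are those of the comparison of the models. With values rescaled to the upper quartile, 7.51% of genes were called higher and 17.99% lower, and Stat6 (0.42) lost its call.

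Stat5b measured 1373, 2586 and 2672 normalized counts in NAM-treated AT3 tumors 1 to 3, beside 901, 1087 and 920 in untreated ones. All treated tumors were above all untreated tumors, a log2 difference of 1.13 (SE 0.29, adjusted p = 0.166) or 2.19-fold. The exact two-sided permutation p was 0.1, the smallest that 3 against 3 tumors allow. The call stood when any 1 of the 6 tumors was left out.

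Stat3 measured 5803, 12692 and 14415 after NAM beside 4078, 7314 and 4121 in untreated tumors. Untreated tumor 2 lay above NAM-treated tumor 1, and the difference was 1.04 (SE 0.38, adjusted p = 0.171). Stat6 measured 6363, 9473 and 9249 beside 5191, 6851 and 4269, with the same pair of tumors overlapping and a difference of 0.63 (SE 0.26, adjusted p = 0.188). Without untreated tumor 1 or 3, or NAM-treated tumor 2 or 3, Stat5b was the only STAT gene called. Without untreated tumor 2 or NAM-treated tumor 1, Stat5a joined the other 3 genes.

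Stat5a measured 1012, 1992 and 1917 after NAM beside 959, 1301 and 841 untreated, a difference of 0.63 that did not pass (SE 0.31). Stat2 measured 4740, 6525 and 4585 beside 3310, 4290 and 3841. Its groups were apart, but the difference of 0.46 (SE 0.22, adjusted p = 0.234) was under 1.5-fold and did not pass. Stat4 stayed low, at 126, 80.0 and 86.7 beside 58.0, 67.0 and 136 (0.24, SE 0.41).

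**Figure D3:**
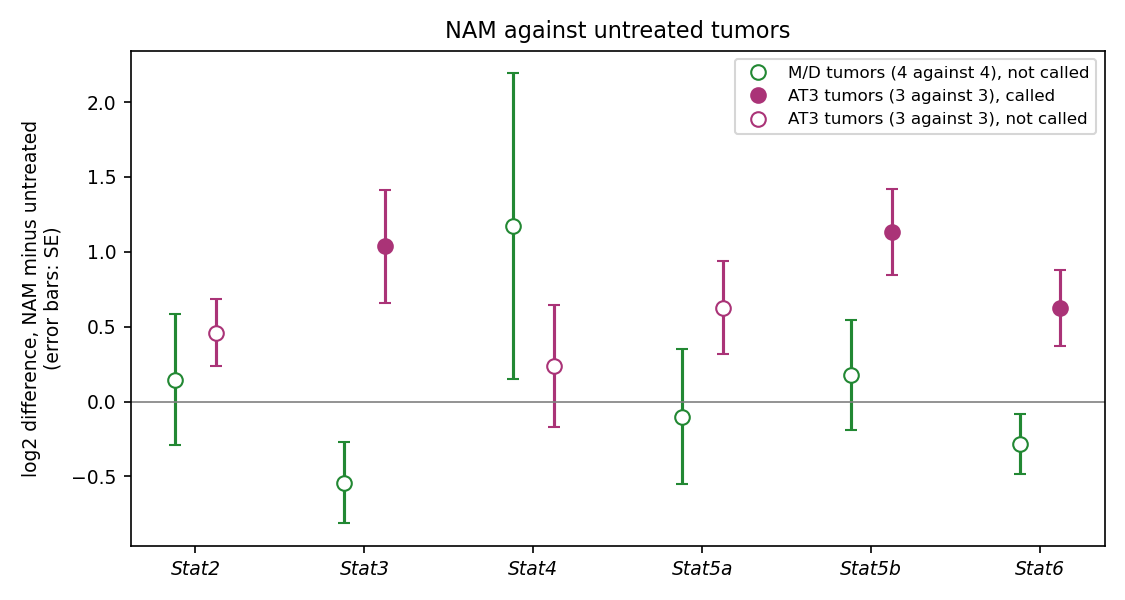
Log2 difference between NAM-treated and untreated tumors (y axis) for each STAT gene in M/D tumors (green) and AT3 tumors (purple), with the SE from limma as bars and filled circles where the gene was called. Stat3 is at -0.54 in M/D and 1.04 in AT3 tumors, and Stat4 in M/D tumors (1.17) has the widest bar (SE 1.02).

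Transcript length moved with the NAM comparison of AT3 tumors. The median log2 difference climbed from -0.83 for genes with a longest transcript under 1 kb to 0.72 for those of 8 kb and over, while in M/D tumors the bins lay between -0.06 and 0.05. Stat3 (6.042 kb) sits in a bin where 41.2% of genes were called higher in AT3 tumors, and Stat5b (5.213 kb) in one with 35.1%. The shares were 22.5% around Stat2 (4.397 kb), 12.4% around Stat5a (3.958 kb) and Stat6 (3.775 kb) and 3.28% around Stat4 (2.982 kb). A tumor's rank correlation of deviation with length was -0.53 and -0.51 in untreated tumors 1 and 3 and 0.56 and 0.59 in NAM-treated tumors 2 and 3. Untreated tumor 2 (0.00) and NAM-treated tumor 1 (-0.20) lay between them.

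With the trend of each tumor with length and GC content removed, 0 of 6 STAT genes were called in AT3 tumors, where 7.91% of genes were called higher. Stat5b kept a difference of 0.53 (SE 0.16, adjusted p = 0.151), short of 1.5-fold, and Stat3 one of 0.34 (SE 0.18, adjusted p = 0.301). The trend itself amounted to 0.60 at Stat5b, 0.70 at Stat3 and 0.31 at Stat6. The source of the trend was not tested, and no measure of RNA integrity was used here.

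**Figure D4:**
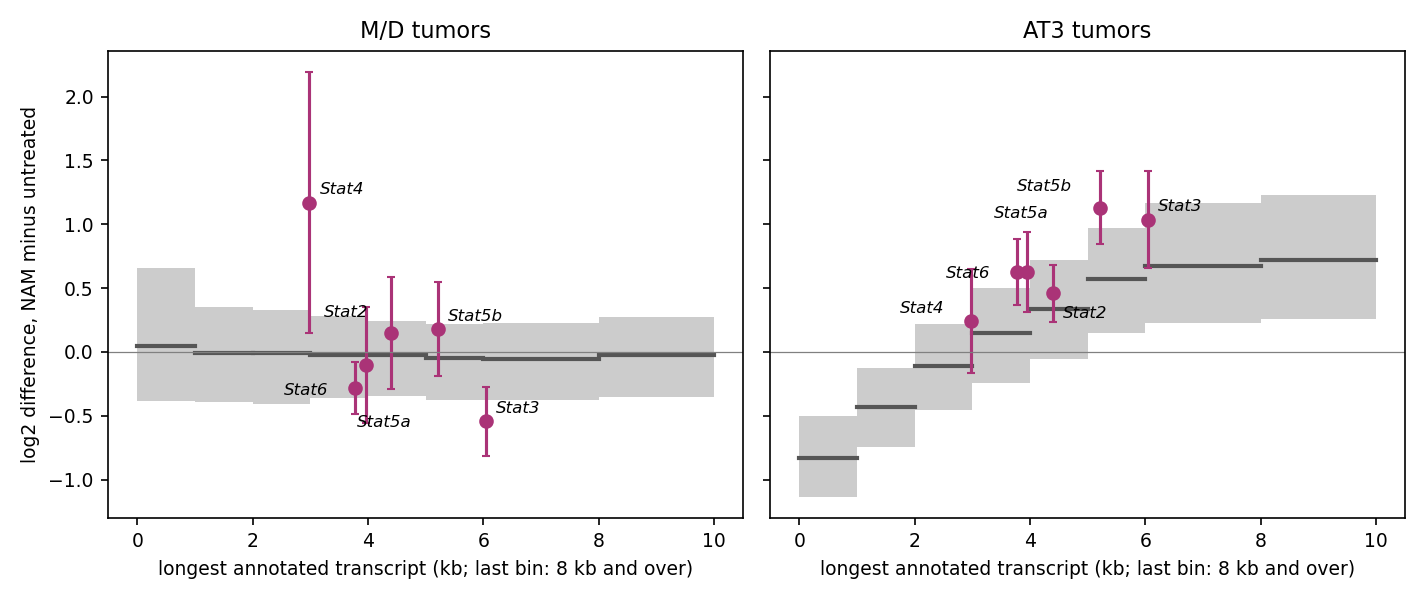
Log2 difference between NAM-treated and untreated tumors (y axis) against the longest annotated transcript in kb (x axis) for M/D and AT3 tumors, with the median (dark line) and quartiles (grey) of all genes in bins of length, and STAT genes as points with SE. AT3 medians run from -0.83 under 1 kb to 0.72 at 8 kb and over, and Stat5b (1.13) lies above the upper quartile of its bin.

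The balance of Stat5b and Stat5a within a tumor, which does not depend on its size factor, was compared by exact permutation. The log2 ratio was 0.44, 0.38 and 0.48 in NAM-treated AT3 tumors and -0.09, -0.26 and 0.13 in untreated ones. All treated tumors were higher, by 0.51 (exact two-sided permutation p = 0.1, adjusted over 3 comparisons to 0.3), so a p of 0.05 could not be reached. Length and GC trends at these genes were 0.60 for Stat5b and 0.40 for Stat5a. In M/D tumors the ratio ranged from -0.66 to 0.92 after NAM and from -0.54 to 0.30 untreated, and the difference of 0.28 was within that spread (exact permutation p = 0.457).

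**Figure D5:**
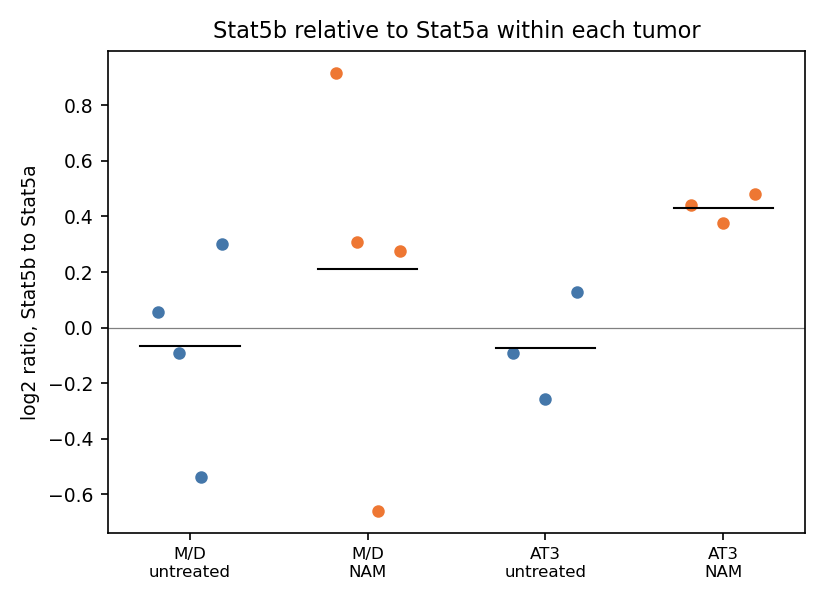
Log2 ratio of Stat5b to Stat5a normalized counts within each tumor (y axis) for the 4 groups, untreated in blue and NAM-treated in orange, with the group mean as a line. NAM-treated AT3 tumors lie at 0.38 to 0.48, above untreated AT3 tumors at -0.26 to 0.13.

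Upstream of the STAT genes, NAM-treated AT3 tumors had 2 of 4 JAK kinases called higher, Jak1 (0.76, SE 0.26) and Tyk2 (0.87, SE 0.30). Of 29 receptors 7 were higher and 0 lower. Over all genes tested, 12.2% were called higher and 10.9% lower. These shares were 7.91% and 7.93% with the trend removed, and 7.51% and 17.99% at the upper quartile. Il6st, the shared chain of IL-6 family receptors, measured 702, 1753 and 2267 after NAM beside 409, 459 and 360 untreated (1.79, SE 0.40). Csf2rb (1.19, in a row that joins several symbols), Il4ra (1.00) and Ifnar1 (0.78), which receives type I interferon, followed. Of the 16 regulators the phosphatase Ptpn11 (1.38, SE 0.38) and the feedback inhibitor Socs2 (0.64, SE 0.26) were higher, a share near that of all genes. Ligands were called lower only, 4 of 15. Ifnb1 measured 65.6, 37.6 and 24.0 after NAM beside 397, 98.5 and 282 (-2.48, SE 0.56), and Clcf1 (-0.77, in a joined row), Tslp (-1.30) and Il15 (-1.16) were the others. Adjusted p of these genes lay between 0.17 and 0.20. With the length and GC trend removed, 0 kinases and 1 regulator were higher, 4 receptors were higher and 1 lower, and 1 ligand was higher and 2 lower. At the upper quartile 1 kinase was higher, 4 receptors were higher and 1 lower, 1 regulator was higher and 1 lower, and 4 ligands were lower.

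Downstream, targets of STAT5 were higher in 4 of 14 (Tnfrsf11a 1.07, Ccnd1 0.59, Pim1 0.64, Socs2 0.64) and lower in 1 (Id1, -0.75). With the trend removed 4 were higher and 0 lower, but at the upper quartile 1 was higher and 1 lower. Over all genes 12.2% were called higher and 10.9% lower, and several of the counts below lie near these shares. Of 16 STAT3 targets, Il4ra, Stat3 and Pim1 were higher and Cebpd (-0.78) lower. Of 14 STAT6 targets, Il4ra and the macrophage receptor Mrc1 (0.82) were higher and Arg1 (-1.25), an alternative activation enzyme, lower. Furin (1.29) and Il12rb2 (1.14) were higher among 10 STAT4 targets. Il12rb2 was low throughout, at 37.7, 33.9 and 30.6 normalized counts after NAM beside 11.6, 12.2 and 22.8 untreated. Among 21 ISGF3 targets Oas3 (1.05) was higher, and Mx2 (-0.95) and Isg15 (-0.93) were lower. With the trend removed, counts were 1 higher and 1 lower for STAT3, 3 and 0 for STAT6, 2 and 0 for STAT4 and 0 and 2 for ISGF3 targets, and at the upper quartile 2 and 1, 1 and 1, 1 and 0, and 1 and 4. Isg15 measured 35082, 26701 and 18587 after NAM, with 2 of these tumors inside the untreated range. Cell type markers were called in both directions. Called higher were 5 of 12 macrophage markers (0 lower, though the other 7 had a difference below 0 and the list's median was -0.16), 5 of 10 endothelial markers (2 lower), 2 of 10 fibroblast markers, 1 of 10 epithelial markers (3 lower, median -0.62) and 1 of 9 B cell markers (2 lower), against 0 of 16 T and NK cell markers. With the trend removed, 2 macrophage and 3 endothelial markers were higher and 1 epithelial marker lower, and at the upper quartile 3 macrophage markers were higher and 1 lower, with 5 epithelial markers lower. Macrophage markers summed to 78756 to 114849 after NAM and 73345 to 143616 untreated, and their part in these counts was not tested.

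Whether NAM acted differently in the models was tested with an interaction term over all 14 tumors. Called were 2 of 6 STAT genes, against 14.9% of 22710 genes. The effect on Stat3 was higher in AT3 than in M/D tumors by 1.58 on the log2 scale (SE 0.49, adjusted p = 0.215), and that on Stat6 by 0.91 (SE 0.33, adjusted p = 0.254). Neither call was lost when any 1 tumor was left out. Stat5b differed by 0.95 (SE 0.51, adjusted p = 0.384), which did not pass, and by 1.18 without M/D NAM tumor 1 and 1.27 without AT3 NAM tumor 1, which both passed. Differences were 0.73 for Stat5a, 0.31 for Stat2 and -0.93 for Stat4, each below 2 SE, and Stat4 turned to 0.23 without M/D NAM tumor 1. With the trend removed Stat3 (0.79) was called and Stat6 (0.49) was not, as with values rescaled to the upper quartile (Stat6 0.57), where 4.06% of genes were called higher and 13.9% lower against 7.90% and 6.97%. Of 30 receptors, the NAM effect on Il4ra (1.78), Il6st (1.76), Lepr (2.15) and Il6ra (1.17) was called higher in AT3 than in M/D tumors. With the trend removed this effect was called higher for 1 receptor and lower for 2. Among all genes, 7.90% were called higher and 6.97% lower, and 5.00% and 5.78% with the trend removed. At an adjusted p of 0.05, 0 genes passed in limma, 0 in edgeR and 840 in DESeq2. At an unadjusted p of at most 0.05, limma gave 3387.

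Genes whose tumor-to-tumor deviation was most like that of each STAT gene were drawn from 12297 genes, over 14 tumors, as Pearson r of log2 values minus the group mean. The tumors share depth, length trends and cell content, so these are descriptions. Stat2 was followed by Znfx1 (r = 0.91), Ly75 (0.89) and Rnf213 (0.88), and by Spn, Uba7 (in a row joined with Cdhr4) and Oas2 without M/D NAM tumor 1. Znfx1, Rnf213, Uba7 and Oas2 are known as interferon-induced genes.

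Stat4 followed Was (0.99), Rac2 (0.99) and Tnfrsf13b (0.99), genes of hematopoietic cells, and Was (0.95), Cd2 (0.92) and Rac2 (0.91) without M/D NAM tumor 1. Stat3 was closest to Acvr1b (0.97, in a row joined with a microRNA), Phldb2 (0.97) and Numb (0.97), and without that tumor to Piezo1 (0.98), Trappc9 (0.98) and Recql5 (0.97), so none of the 3 genes recurred. For Stat6 they were Slc12a4 (0.94, likewise joined), Clcn7 (0.93) and Atg9a (0.93), replaced by Mink1 (0.95), Hectd3 (0.95) and Fam129b (0.94). Stat5a was closest to Ptk2 (0.94), Wdr59 (0.91) and Entpd6 (0.91), and without the tumor to Ptk2 (0.97), Faxc (0.95) and Rapgef5 (0.94). Stat5b was closest to Dennd1b (0.98), Ep400 (0.98, likewise joined) and Rbm33 (0.97), and without the tumor to Ehf (0.98), Dennd1b (0.98) and Sntb2 (0.97). Among the STAT genes themselves, Stat3 with Stat6 (0.76) and Stat5a with Stat5b (0.75) had the highest r, 0.73 and 0.87 without M/D NAM tumor 1.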

How the data were processed

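Polyadenylated RNA of 14 tumors was sequenced as paired 75-base reads. Per the submitters' processing notes and the study's methods, the authors mapped reads with STAR 2.4.0 on mm10, counted them on constitutive regions of Mouse FAST DB genes and deposited counts divided by DESeq2 size factors, a normalized signal. Values (100%) were whole multiples of a step per tumor (tolerance 0.01), and division gave back whole reads. No column was left unmapped (0). Depth was 40936868 to 84178009 reads.

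Groups came from the titles. limma 3.58.1 (R 4.3.3) with a trend was fitted to log2(value + 1) within each model, keeping genes whose mean reached 10 in 1 or more groups. The interaction and the model comparison used all 14 tumors, the latter on TMM-scaled values (edgeR 4.0.16). p was adjusted by Benjamini-Hochberg over all genes. Fold changes are on the log2(value + 1) scale. Nothing says whether tumors shared a litter or cage, so p measures the spread between these tumors.

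The members and lists were chosen with earlier results of these data known. Named from each list were at most 4 called genes per comparison, by lowest p, and 3 most alike genes per member. Alternatives were other pseudocounts (0.5, 5) and filters, edgeR and DESeq2 1.42.0 on recovered reads, a replicate block, other scaling, leaving out each tumor, and removal of the trend with length and GC content (GENCODE vM21) by splines of 4 df. List counts under other settings, and most alike genes without M/D NAM tumor 1, were added after seeing the data. Scripts were tested on simulated data.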

Additional observations from a re-analysis of the deposited data

Results flagged for a closer look

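In NAM-treated M/D tumors, Stat2 measured 8275 normalized counts in tumor 4 and Stat4 measured 9336 in tumor 1, each separated from the other 3 tumors of its group by nearly the whole range of the group (Dixon's test at the 95% level). Chance gives about 1 such tumor in 20 groups, and 2 of the 14 groups tested had one. The effect of NAM differed between the models for Stat3 (by 1.58 on the log2 scale) and Stat6 (by 0.91), higher in AT3 tumors, by the interaction term at an unadjusted p of at most 0.05; neither passed at an adjusted p.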

How the results depend on the processing

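Pseudocounts, filters, TMM factors and a fit of NAM effects over all 14 tumors changed no call of a STAT gene. In M/D tumors edgeR called 1 STAT gene (Stat4), and Stat5a, at -0.10, turned to 0.020 in edgeR, 0.038 in DESeq2, 0.060 with the length and GC trend removed and 0.0085 at the upper quartile. In AT3 tumors 0 were called with the trend removed. The interaction gave 1 call with the trend removed and 1 at the upper quartile, where Stat2 turned to -0.24 and -0.030. Between untreated models 1 gene was called with the trend removed, where Stat6 turned to -0.12, and 2 with upper quartile factors. Calls per comparison with 1 tumor left out ranged from 0 to 1 in M/D, 1 to 4 in AT3 and 2 to 5 between untreated models. Values that turned sign ranged from -0.22 to 0.40 for Stat2, -0.44 to 0.30 for Stat5a and -0.047 to 0.54 for Stat5b in M/D tumors, from -1.50 to 0.23 for Stat4 in the interaction, and from -0.12 to 0.16 for the Stat5b to Stat5a ratio between untreated models. Where no value above shows it, the cause was not tested.

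Tumors with the same replicate number were not alike: their deviations correlated at -0.44 to 0.11 over the 4 M/D pairs and -0.16 to 0.26 over the 3 AT3 pairs. As a replicate block the number gave 0, 4, 2 and 4 calls in the M/D, AT3, interaction and model comparisons, with Stat5a (0.63, adjusted p = 0.162) added in AT3 tumors, where Stat3 and Stat5b passed at an adjusted p (0.0412 and 0.0305), and no other call at the thresholds used changed. Over all genes, p adjusted to at most 0.05 held for 1 gene in AT3 tumors in limma, 0 in edgeR, 2047 in DESeq2 and 1296 with the block.

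Depth was at least 40936868 reads per tumor, and the lowest STAT value was 58.0 normalized counts (Stat4), where counting error is largest.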
